A study of Mus musculus with 6 samples.

Results

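Toll-like receptors are the membrane sensors with which macrophages detect bacterial and viral molecules, and the genes described here encode 4 of these receptors, 1 co-receptor and 5 proteins that carry their signal. They are the genes whose symbol in the platform's probe table is Tlr1, Tlr2, Tlr6, Tlr3, Cd14, Myd88, Irak1, Tab2, Tbk1 or Ikbke. All 10 were found, each with 1 probe, among 8841 named genes on the array.

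Messenger RNA was measured on 6 single-colour arrays, 1 for each group, in macrophages that thioglycollate, an irritant, had elicited in mice. The mice were C57BL/6 females, 6 weeks old, in every group. The 6 treatments were TSA + GW3965 + LPS, GW3965 + LPS, TSA + LPS, LPS, TSA and No treatment. LPS is lipopolysaccharide of the bacterial outer membrane, TSA (trichostatin A) blocks histone deacetylases, and GW3965 activates liver X receptors, which are nuclear receptors for oxidised cholesterol. The labels give no dose, no time and no animal or culture for a sample. There are no replicates, so a difference between a pair of arrays has no error of its own, and the p-values below measure only the spread between these 6 arrays, which may be technical.

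As background, TLR2 works in pairs: with TLR1 it binds triacylated and with TLR6 diacylated lipopeptides at the cell surface. TLR3 sits in endosomes and binds double-stranded RNA. CD14 hands LPS to the TLR4 complex. Most Toll-like receptors recruit the adaptor MYD88, which assembles IRAK kinases, and TAB2 then ties ubiquitin chains to the kinase TAK1, upstream of NF-kB. TLR3 instead signals through the adaptor TRIF. TRIF leads to TBK1 and IKK-epsilon, the product of Ikbke, which phosphorylate interferon regulatory factors.

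The bases upstream of 4 of the genes are shown because these genes moved in different ways: Tlr2 and Tlr3 were raised by LPS, Irak1 was not raised, and Myd88 was raised and then lower with TSA. Each line holds the 250 bases before the annotated start in RefSeq, build GRCm38.p6, 5′ to 3′ on the gene's strand. These lie at chr3:83841609-83841858 for Tlr2, chr8:45410381-45410630 for Tlr3, chr9:119340019-119340268 for Myd88 and chrX:74023922-74024171 for Irak1, all on the minus strand. Capitals mark matches, on either strand, to the kB consensus bound by NF-kB or to AANNGAAA, the core bound by interferon regulatory factors.
Tlr2: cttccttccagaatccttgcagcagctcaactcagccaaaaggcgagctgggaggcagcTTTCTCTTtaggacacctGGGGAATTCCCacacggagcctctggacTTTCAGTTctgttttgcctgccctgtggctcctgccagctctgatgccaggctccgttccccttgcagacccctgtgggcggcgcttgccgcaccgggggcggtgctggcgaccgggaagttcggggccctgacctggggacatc
Tlr3: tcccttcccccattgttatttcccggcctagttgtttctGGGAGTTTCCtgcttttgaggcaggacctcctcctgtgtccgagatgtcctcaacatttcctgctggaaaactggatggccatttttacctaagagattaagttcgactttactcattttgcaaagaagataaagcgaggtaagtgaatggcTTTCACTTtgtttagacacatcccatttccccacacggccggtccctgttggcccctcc
Myd88: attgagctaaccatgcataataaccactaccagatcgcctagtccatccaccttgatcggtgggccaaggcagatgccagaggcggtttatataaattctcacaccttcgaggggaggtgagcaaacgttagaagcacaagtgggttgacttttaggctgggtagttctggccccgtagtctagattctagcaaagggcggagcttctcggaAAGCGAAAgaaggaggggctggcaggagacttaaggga
Irak1: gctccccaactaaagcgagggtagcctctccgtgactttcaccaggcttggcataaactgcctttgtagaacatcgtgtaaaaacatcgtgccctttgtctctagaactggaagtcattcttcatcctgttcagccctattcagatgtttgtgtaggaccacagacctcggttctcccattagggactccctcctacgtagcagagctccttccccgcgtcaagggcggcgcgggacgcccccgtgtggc
The kB consensus was found in 2 of 13 start windows of 300 bases belonging to 9 of the genes, those of Tlr2 and Tlr3, against 4.51% of all 32851 windows in the table. The matches begin 211 bases before the start in Tlr3, and in Tlr2 173 bases before it, with overlapping matches there and a further one that runs across the start and is not in capitals. AANNGAAA was found in 7 of the 13 windows, those of Tlr1, Tlr2, Tlr6, Tlr3, Myd88, Tab2 and Ikbke, against 23.9% of all windows. No match of AANNGAAA overlapped one of the kB consensus in the lines shown. The Irak1 line holds neither motif, which says only that these letters are not in this window. In the gene table Tlr1 and Tlr6 are next to each other on chromosome 5. Their products are close relatives, and whether the probe of either gene also reads the other was not tested.

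Values are deposited intensities on a linear scale, whose array medians were nearly equal, at 0.981 to 0.987. All members stood above their array's median on 6 of 6 arrays except Tlr3, which did so on 4. Before log2, values under an array's 25th percentile were set to it, which touched no member's value. Rank correlations between arrays over all genes ran from 0.934 to 0.987. In the check of the label against macrophage markers, 5 of 8 were on the array. Lyz2, Itgam, Mertk and Fcgr1 were above the array median on all 6 arrays and Adgre1 on 5, and their sum, nearly all of it Lyz2, was 753 to 1060 with LPS, against 737 to 1040 without it. Adgre1 rose with LPS by 1.60 in log2 units (SE 0.29, adjusted p = 0.000478 by limma), reading 2.00 to 2.84 with LPS, against 0.730 to 1.06 without it. Markers of neutrophils differed in their direction with LPS. Their sum over 7 measured of 9 listed genes was 52.4 to 82.1 on the arrays with LPS, against 24.6 to 34.2 without it. Most of that sum was S100a8, which rose with LPS by 1.20 in log2 units (adjusted p = 0.00102 by limma) and with TSA by 0.60 (adjusted p = 0.0386). The granule gene Camp also rose with LPS, by 2.91 (SE 0.33, adjusted p = 3.25e-06), reading 0.834 to 2.54 with LPS and under the floor on both arrays without it. The granule genes Mpo, Elane and Ngp were under the array median on all 6 arrays. Ltf went the other way, reading 0.306 to 0.435 with LPS, against 1.11 with TSA and 0.771 with No treatment. Csf3r was mixed, at 0.311 to 1.16 with LPS, against 0.435 with TSA and 0.702 with No treatment. Both reached the array median on 1 array only. The sums were 3.60 to 5.28 for 6 of 7 T cell genes, 6.03 to 8.02 for 3 of 5 B cell genes, 11.8 to 20 for 4 of 5 mast cell genes and 3.51 to 5.36 for 3 of 4 eosinophil genes. They were 0.952 to 1.60 for 2 of 4 dendritic cell genes and 0.633 to 1.44 for 3 of 5 genes of mesothelial cells and fibroblasts. The part of other cells in the results was not tested, and in such bulk RNA fewer cells of a type and less RNA per cell cannot be told apart.

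**Figure D1:**
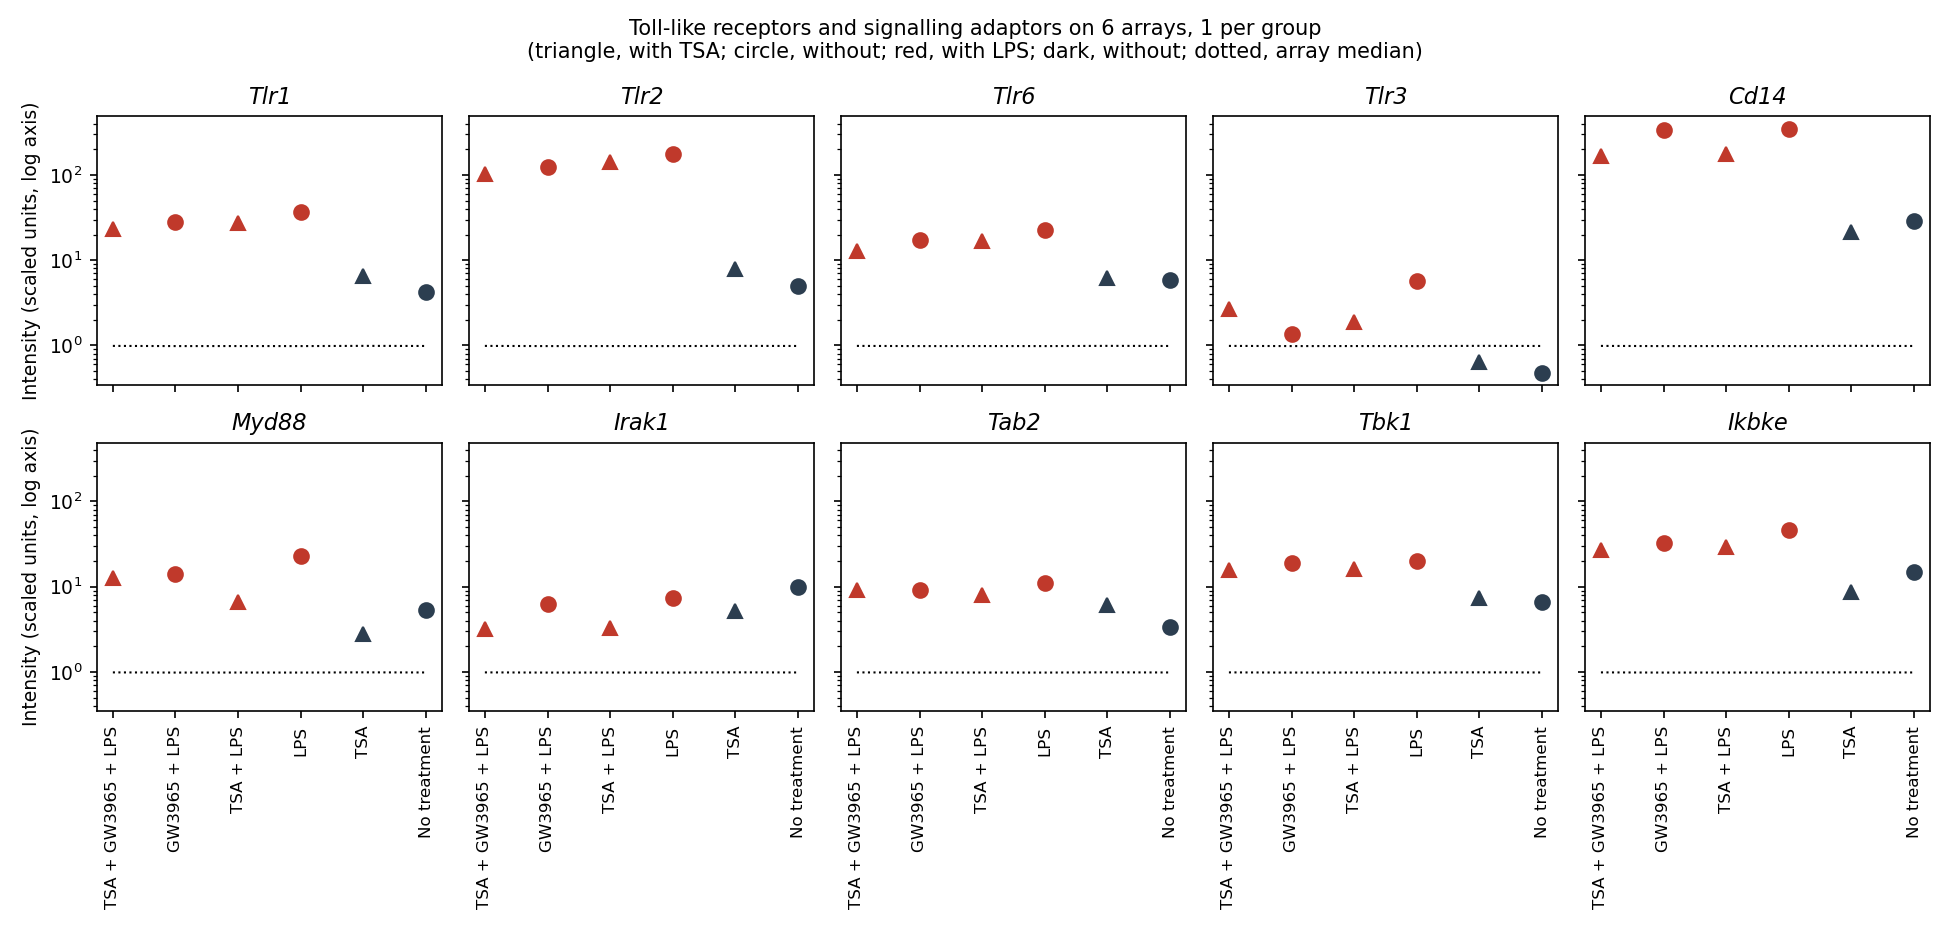
Intensity (log axis, scaled units) of each of the 10 genes on the 6 arrays, 1 point per array, with the array median dotted. Red points are arrays with LPS and triangles arrays with TSA; in 9 of the 10 panels every red point is above both dark ones, and in the Irak1 panel the triangles are the lower point of each pair.

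LPS raised the receptors of bacterial lipopeptides, the co-receptor Cd14, the RNA receptor Tlr3 and most of the signalling genes. Tlr2 had the largest fitted rise of the 10, 25.2-fold, and Irak1 was the only one that did not pass the test. The question is what the stimulus does to the machinery that senses it, and it is answered by 2 pairs of arrays, LPS against No treatment and TSA + LPS against TSA. The mean effect over both pairs was estimated with limma over 4806 genes, in 1 model that adds the effects of the 3 agents. A gene is said to have risen or fallen where the Benjamini-Hochberg adjusted p over these genes, two-sided, was under 0.05. By that test 9 of 10 members rose and 0 fell, against 12.5% of all tested genes that rose and 6.76% that fell. None of the 10 fell at an unadjusted p under 0.05 either, which 1441 of 4806 tested genes reached in either direction.

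Tlr2, the shared subunit of the lipopeptide receptors, read 102 with TSA + GW3965 + LPS, 123 with GW3965 + LPS, 141 with TSA + LPS, 178 with LPS, 7.96 with TSA and 4.97 with No treatment. The 4 arrays with LPS lay far above the other 2, and among them the order ran down from LPS alone to the triple treatment. The fitted LPS rise was 4.65 in log2 units (SE 0.27, adjusted p = 6.53e-10, higher in 2 of 2 pairs). It amounted to 35.8-fold for LPS against No treatment and 17.7-fold for TSA + LPS against TSA.

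Its partner Tlr1 read 23.1 with TSA + GW3965 + LPS, 28 with GW3965 + LPS, 27 with TSA + LPS, 36.4 with LPS, 6.54 with TSA and 4.20 with No treatment. The arrays with and without LPS did not overlap. The fitted rise was 2.58 (SE 0.28, adjusted p = 1.94e-06, 2 of 2 pairs), made of 8.66-fold without and 4.13-fold with TSA. Tlr6, the alternative partner, read 12.8 with TSA + GW3965 + LPS, 17.4 with GW3965 + LPS, 17.0 with TSA + LPS, 22.5 with LPS, 6.25 with TSA and 5.82 with No treatment. Here too the groups did not overlap, and the fitted rise was smaller, 1.70 (SE 0.26, adjusted p = 8.66e-05, 2 of 2 pairs). All 3 genes of the lipopeptide receptors were thus lowest in No treatment and highest in LPS.

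Tlr3, the endosomal RNA receptor, read 2.64 with TSA + GW3965 + LPS, 1.36 with GW3965 + LPS, 1.87 with TSA + LPS, 5.75 with LPS, 0.639 with TSA and 0.480 with No treatment. The LPS array stood apart from the other 3 arrays with LPS, and both arrays without LPS were under the array median. The fitted rise was 2.56 (SE 0.43, adjusted p = 0.000245, 2 of 2 pairs), with 12-fold without and 2.92-fold with TSA. Setting the floor to the array median, which lies above both readings without LPS, made the fitted rise 1.73. The log2 difference was then 2.55 in place of 3.58 without TSA, and 0.92 in place of 1.55 with TSA, which is under 2-fold.

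Cd14, the co-receptor that delivers LPS, read 167 with TSA + GW3965 + LPS, 339 with GW3965 + LPS, 174 with TSA + LPS, 351 with LPS, 21.6 with TSA and 29.2 with No treatment. The arrays fell into 3 levels: LPS without TSA, LPS with TSA, and no LPS. The rise with LPS was 3.30 in log2 units (SE 0.24, adjusted p = 1.28e-08, 2 of 2 pairs).

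Myd88, the adaptor of most of these receptors, read 12.7 with TSA + GW3965 + LPS, 14.1 with GW3965 + LPS, 6.62 with TSA + LPS, 22.8 with LPS, 2.78 with TSA and 5.38 with No treatment. The TSA + LPS array was near the No treatment array, so the gap between arrays with and without LPS was narrow. The fitted rise was 1.67 (SE 0.32, adjusted p = 0.000832, 2 of 2 pairs), or 4.24-fold without and 2.39-fold with TSA.

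Irak1, a kinase that MYD88 recruits through IRAK4, read 3.20 with TSA + GW3965 + LPS, 6.26 with GW3965 + LPS, 3.29 with TSA + LPS, 7.39 with LPS, 5.18 with TSA and 9.86 with No treatment. It was the only member whose highest array was No treatment, and its arrays with and without LPS overlapped. The fitted LPS difference was -0.53 (SE 0.26, adjusted p = 0.176, lower in 2 of 2 pairs), with a 95% interval of -1.08 to 0.01. Tab2, the scaffold that ties ubiquitin chains to TAK1, read 9.23 with TSA + GW3965 + LPS, 9.16 with GW3965 + LPS, 7.93 with TSA + LPS, 11 with LPS, 6.10 with TSA and 3.38 with No treatment. Its rise was the smallest that passed, 1.04 (SE 0.30, adjusted p = 0.0198, 2 of 2 pairs). The pairs were unequal, at 3.26-fold for LPS against No treatment and 1.30-fold for TSA + LPS against TSA.

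Tbk1 read 15.8 with TSA + GW3965 + LPS, 18.7 with GW3965 + LPS, 15.9 with TSA + LPS, 19.9 with LPS, 7.44 with TSA and 6.59 with No treatment. The 4 arrays with LPS were close together, and the fitted rise was 1.35 (SE 0.25, adjusted p = 0.000766, 2 of 2 pairs). Ikbke, which encodes the related kinase, read 26.7 with TSA + GW3965 + LPS, 32.8 with GW3965 + LPS, 29.5 with TSA + LPS, 46.5 with LPS, 8.67 with TSA and 14.9 with No treatment. The groups did not overlap. It rose by 1.70 (SE 0.25, adjusted p = 5.62e-05, 2 of 2 pairs), with nearly equal pairs of 3.12-fold without and 3.40-fold with TSA.

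**Figure D2:**
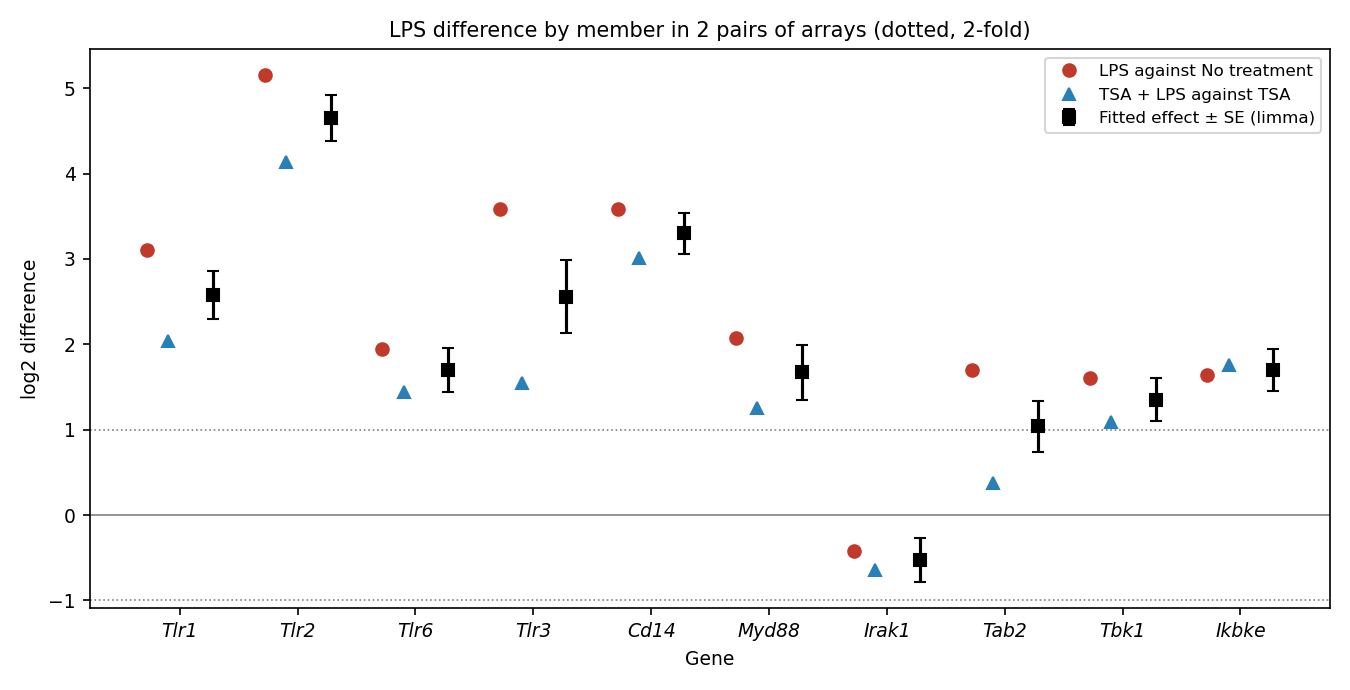
LPS differences (log2, y axis) of the 10 genes (x axis): circles are LPS against No treatment, triangles TSA + LPS against TSA, and squares the limma effect over both pairs with its SE. Tlr2 is highest at 4.65 and Irak1 alone lies below 0, at -0.53; the dotted lines mark 2-fold.

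For 9 of 10 members every array with LPS was above both arrays without it, which held for 19.7% of tested genes. By size alone, counting genes at least 2-fold apart whose brighter array reached its own median, 9 of 10 members were higher and 0 lower in LPS against No treatment. Of all 4790 measured genes in that pair 14.0% were higher and 6.05% lower, which is 669 and 290 genes, or 560 and 429 after quantile normalization. In TSA + LPS against TSA 8 of 10 were higher and 0 lower, with Tab2 and Irak1 short of the size, against 9.20% and 6.37% of all genes. The count of 8 was 7 after quantile normalization, where Tbk1 was at 0.99 in log2 units, and 7 with the floor at the array median, where Tlr3 was lost. The median fitted LPS effect was 1.70 for the members and 0.04 for all tested genes. Ordered by the size of the rise, neighbouring genes differed by more than 2 combined SE only between Tlr2 and Cd14, by 1.36, and between Tab2 and Irak1, by 1.58. Quantile normalization moved the median LPS effect of all genes to -0.10 and the counts of all genes to 519 risen and 507 fallen, from 602 and 325; the same 9 members still rose.

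TSA lowered 3 members, Cd14, Myd88 and Irak1, and raised none. For Tlr1, Tlr2, Tlr6, Tlr3, Tab2 and Tbk1 the sign differed between the pairs. They were higher in TSA against No treatment, where Tlr3 was under the median on both arrays, and lower in TSA + LPS against LPS. Tlr1 and Tlr2 were 1.56-fold and 1.60-fold higher in the first pair, and 1.35-fold and 1.27-fold lower in the second. Tab2 was 1.81-fold higher and 1.39-fold lower. The question is what the deacetylase inhibitor does to this machinery, and 3 pairs of arrays answer it. Over them 3 of 10 members fell and 0 rose by limma, against 7.64% and 10.8% of all tested genes. At an unadjusted p under 0.05 the counts were 4 and 0, against 1548 of 4806 tested genes in either direction. The members' median effect was -0.19 and that of all tested genes 0.01.

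Irak1 fell by 1.02 in log2 units (SE 0.21, 3 of 3 pairs, adjusted p = 0.00348), a 2.03-fold difference. The pairs given above lay at -0.97 with GW3965 and LPS, -1.17 with LPS and -0.93 in resting cells, a spread of 0.13 (SD, n = 3 pairs). It also passed with any of the 3 pairs left out. Fits without a pair, here and for Cd14 and Myd88 below, keep 1 residual degree of freedom. Their errors rest mostly on genes of like intensity and hardly on a gene's own scatter. The arrays with both LPS and TSA held the lowest Irak1 readings of the 6.

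Cd14 fell by 0.83 (SE 0.20, adjusted p = 0.00883, 3 of 3 pairs). The drop was 2.03-fold in both pairs with LPS and 1.36-fold in resting cells, and the test of the dependence of LPS on TSA, given below, did not pass for it (-0.58, SE 0.45, adjusted p = 1). Without the GW3965 + LPS and TSA + GW3965 + LPS arrays it was -0.73 with an adjusted p of 0.0989. Over 11 alternatives the effect ran from -1.02 to -0.73 and the adjusted p from 0.00107 to 0.0989.

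Myd88 fell by 0.96 (SE 0.26, adjusted p = 0.018, 3 of 3 pairs), but unevenly, with an SD of 0.82 over the 3 pairs. It was 3.45-fold lower in TSA + LPS against LPS, 1.94-fold lower in TSA against No treatment and 1.11-fold lower in TSA + GW3965 + LPS against GW3965 + LPS. Without the LPS and TSA + LPS arrays the effect was -0.55 and did not pass (adjusted p = 0.0909, with 0.000247 to 0.0909 over 11 alternatives). The size of the Myd88 difference therefore rests on those arrays, as the spread of its triangle and diamond in the plot of TSA differences shows.

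Ikbke was just outside the threshold, at -0.58 (SE 0.20, adjusted p = 0.0563, 3 of 3 pairs lower). It passed after quantile normalization, after cyclic loess and without a level filter, so its call depends on these settings, with adjusted p-values of 0.0259 to 0.242 over 11 alternatives. The other 6 members did not pass. Their fitted TSA effects were -0.25 for Tlr6, -0.13 for Tbk1, -0.08 for Tlr3, -0.02 for Tlr1, 0.02 for Tlr2 and 0.13 for Tab2. The 95% interval was -0.45 to 0.49 for Tlr2 and -0.83 to 0.66 for Tlr3, so a change of about 1.5-fold in Tlr3 lies inside it.

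**Figure D3:**
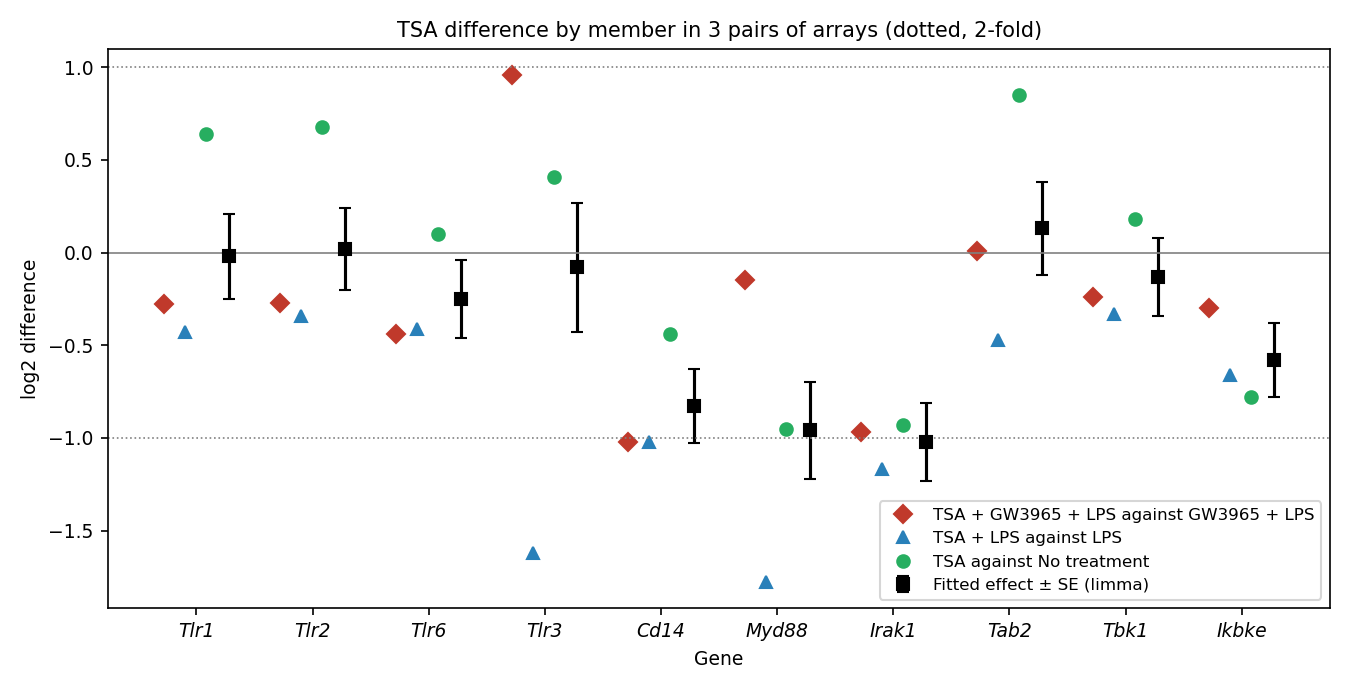
TSA differences (log2, y axis) of the 10 genes (x axis) in 3 pairs of arrays, with the limma effect and its SE as squares. Irak1 is close to -1 in every pair, Cd14 and Myd88 are below 0 in every pair, and Tlr3 runs from -1.62 with LPS to 0.96 with GW3965 + LPS.

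By size, TSA + LPS against LPS was the pair with the most members apart: 4 of 10 were at least 2-fold lower, namely Tlr3, Cd14, Myd88 and Irak1, and 0 higher. Of all genes in that pair 9.55% were lower and 7.57% higher. All 10 members were lower in TSA + LPS than in LPS, with a median log2 difference of -0.57, against -0.01 for all measured genes. This direction was not particular to TSA. Every member but Irak1 read highest on the LPS array, and all 10 were also lower in GW3965 + LPS than in LPS. The median there was -0.37, against -0.02 for all measured genes. In TSA against No treatment 0 of 9 measured members were 2-fold apart, with backgrounds of 6.98% higher and 4.69% lower. Tlr3 was not measured in that pair because neither array reached its median. In TSA + GW3965 + LPS against GW3965 + LPS 1 of 10 was lower, Cd14, and 0 higher, against 1.13% and 4.83% of all genes. The LPS array enters both LPS against No treatment and TSA + LPS against LPS, and the No treatment array enters both LPS and TSA differences of resting cells, so these comparisons are not independent.

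GW3965, added to LPS, changed no member by the test. Of 10 members 0 rose and 0 fell by limma, also 0 at an unadjusted p under 0.05, against 0.0832% of all genes that rose and 0.0208% that fell, with 132 of 4806 genes at an unadjusted p under 0.05. Tlr2 was lower in both pairs, with a fitted -0.50 (SE 0.27, adjusted p = 1, 95% interval -1.07 to 0.07). Cd14 was 1.04-fold lower in both pairs, with a fitted -0.05 (95% interval -0.56 to 0.45). The members' median was -0.22 and that of all genes 0.01.

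The size rule called 1 member in a single pair. Tlr3 was 4.23-fold lower in GW3965 + LPS against LPS, where 1.25% of all genes were 2-fold lower and 0.476% higher. With TSA present the sign turned, and Tlr3 was 1.41-fold higher in TSA + GW3965 + LPS against TSA + LPS. Myd88 also changed sign, 1.61-fold lower without TSA and 1.93-fold higher with it. In TSA + GW3965 + LPS against TSA + LPS 0 of 10 members were 2-fold apart, against 1.75% higher and 0.577% lower among all genes.

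**Figure D4:**
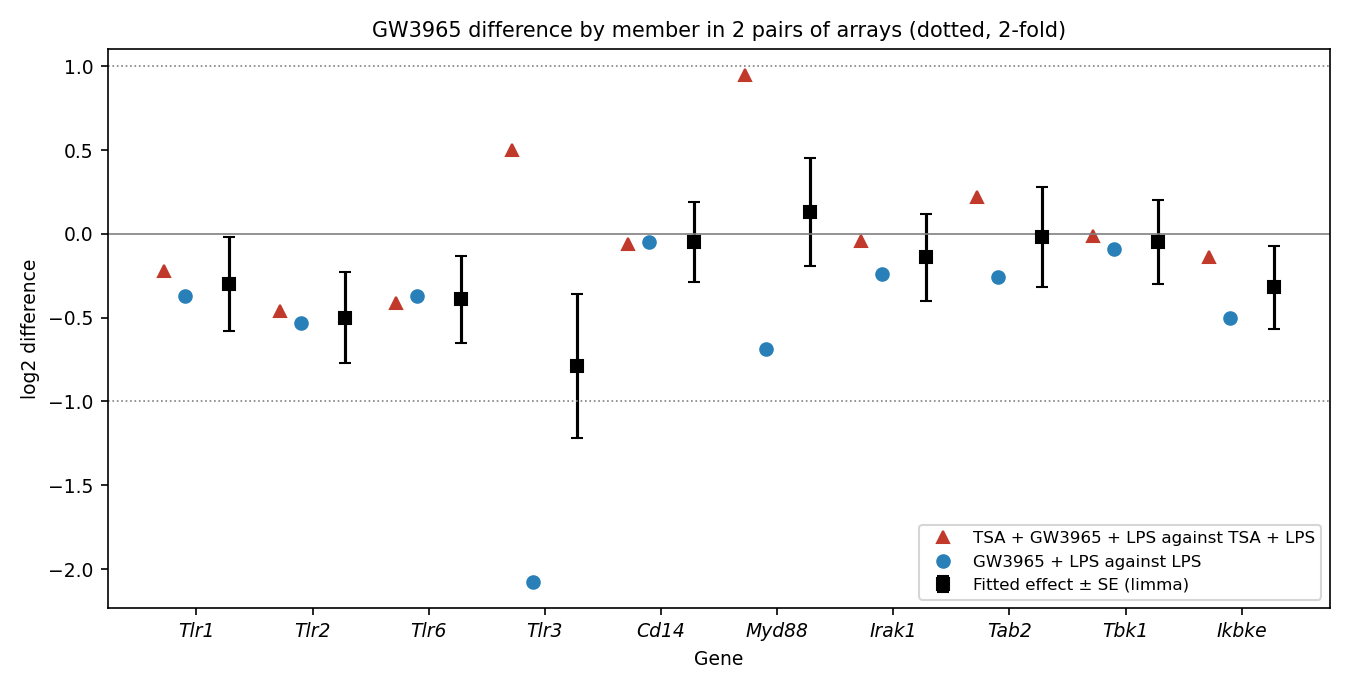
GW3965 differences (log2, y axis) of the 10 genes (x axis): triangles are TSA + GW3965 + LPS against TSA + LPS, circles GW3965 + LPS against LPS, and squares the limma effect with its SE. The circle and triangle of Tlr3, at -2.08 and 0.50, and of Myd88, at -0.69 and 0.95, lie on opposite sides of 0.

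Whether one treatment's effect depended on another was tested directly, by adding an interaction term to the model. This leaves 1 residual degree of freedom, and limma then took the variance wholly from the trend across genes, so these tests do not use a gene's own scatter. The LPS effect depended on TSA for 0 of 10 members after adjustment, against 0.0624% of all genes with a larger LPS effect under TSA and 0.208% with a smaller one. At an unadjusted p under 0.05 there were 3, against 240 of all 4806 genes in either direction. These were Tlr1, Tlr2 and Tab2, with interaction terms of -0.99, -0.98 and -1.08 in log2 units. For Tlr2 the interval of that term was -1.85 to -0.12 and the adjusted p 0.829. In these genes the TSA difference in resting cells pointed up and those under LPS did not, or barely, at 0.01 for Tab2. The term sets the TSA difference under LPS, averaged over 2 pairs, against that in resting cells. One of the averaged pairs holds GW3965, so the term is not the gap between the 2 LPS pairs. Those pairs were 3.58 without and 1.55 with TSA for Tlr3, whose term was -0.75. For Myd88 they were 2.08 and 1.25, and its term was -0.01. The same test for GW3965 and TSA, chosen after the values were seen, gave 0 of 10 members, against 0.0208% and 0% of all genes. At an unadjusted p under 0.05 there were 2, against 140 of all 4806 genes in either direction. They were Tlr3 with 1.56 (SE 0.56, adjusted p = 0.999) and Myd88 with 1.22 (SE 0.58, adjusted p = 0.999).

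The other genes of the pathway were described by counts. A list of 46 further receptors, adaptors, kinases and inhibitors had 29 on the array, of which 22 reached the array median on at least 2 arrays and were tested. With LPS 8 of 22 rose, 1 fell and 13 did not pass, with a median effect of 0.46. Of all tested genes 12.5% rose and 6.76% fell. Irf7, the interferon regulatory factor downstream of TBK1 and IKK-epsilon, rose by 3.36 (SE 0.25, adjusted p = 1.63e-08), reading 433 with LPS and 31.4 with No treatment. Peli1, a ubiquitin ligase that acts on IRAK proteins, rose by 2.57, and Azi2 and Tank, adaptors of TBK1 and IKK-epsilon, by 1.95 and 1.72. Sigirr, a membrane protein that damps Toll-like receptor signalling, was the one that fell, with an effect of -2.08 (SE 0.29, adjusted p = 4.06e-05). It read 0.727 with LPS and 2.97 with No treatment, and 1.57 with TSA + LPS against 6.90 with TSA. Sigirr reached the array median on 4 arrays. It was under the median with LPS and with GW3965 + LPS, where it read 0.777.

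With TSA 1 of 22 rose, 1 fell and 20 did not pass, and the median was -0.23. Of all tested genes 10.8% rose and 7.64% fell, so the list did not stand out. Sigirr rose by 0.92 (SE 0.24, adjusted p = 0.0147), opposite to its LPS change. Ikbkg, the regulatory subunit of the IKK complex, fell by 0.90 (SE 0.25, adjusted p = 0.0221), and it reached the array median on 2 arrays only. With GW3965 0 of 22 passed by limma, against 0.0832% of all genes that rose and 0.0208% that fell. At an unadjusted p under 0.05 there was 1, against 132 of 4806 genes, and the median was -0.13.

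**Figure D5:**
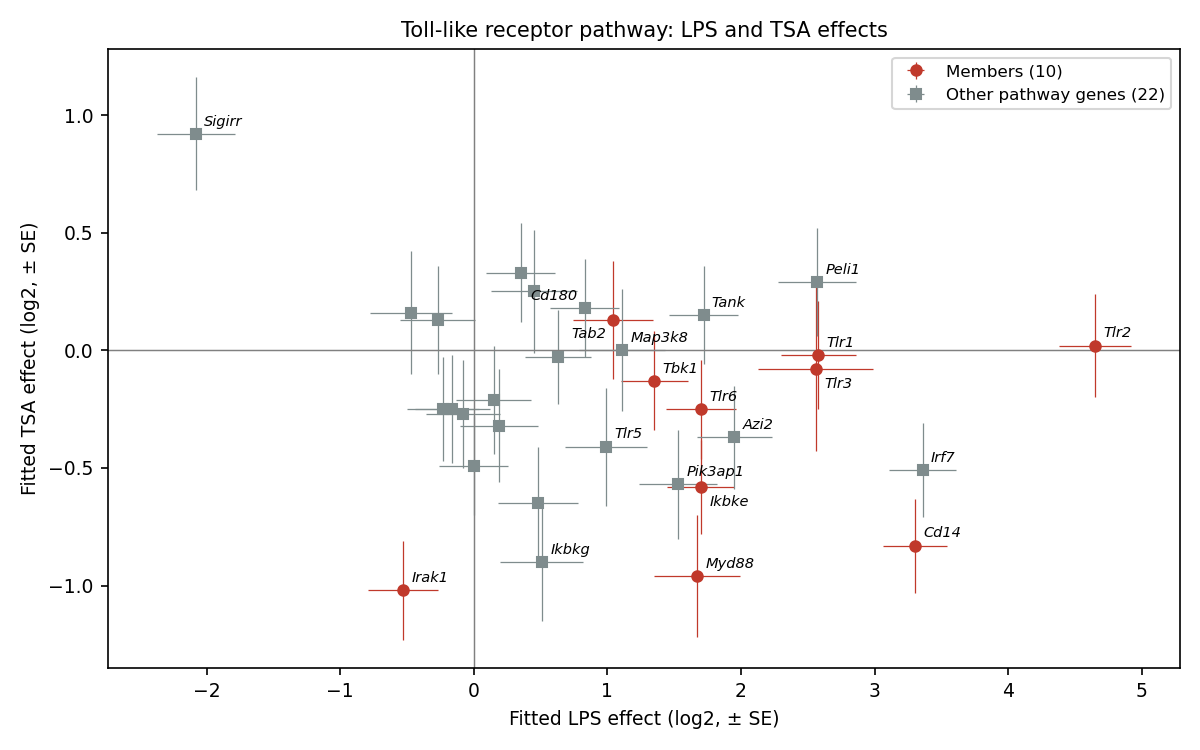
Fitted LPS effect (x axis) against fitted TSA effect (y axis), both log2 with SE bars, for the 10 genes (red circles) and 22 other pathway genes (grey squares); labels mark the 10 and those others that passed a test. Cd14 and Myd88 are at the lower right, Irak1 at the lower left, and Sigirr at the upper left.

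Genes with the most similar profile were sought for Tlr2 and Cd14, which had the widest ranges, 35.8-fold and 16.3-fold over the 6 arrays. By Euclidean distance between centred log2 profiles, Klrk1, Ifih1 and Upp1 were nearest to Tlr2, at 0.50, 0.53 and 0.65. Ifih1, an RNA helicase that senses viral RNA, read 324 with LPS, 16.8 with TSA and 7.29 with No treatment, so it shared the higher reading of TSA in resting cells. Nearest to Cd14 were Ccdc86, Ccrl2 and Mmp14, at 0.50, 0.53 and 0.57. Ccrl2, a chemerin-binding receptor, read 197 with TSA + LPS against 355 with LPS, close to the Cd14 ratio. These distances describe 6 shared arrays and carry no test.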

How the data were processed

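The deposited values are intensity on a linear scale, 1 value for each of 10076 probes and 6 samples; the labels state no scaling method, and 19 to 28 values per array lay at or below 0. Per the labels' protocols, complementary DNA primed with oligo-dT served as template for biotin-labelled RNA. Groups were read from sample titles. The probe table gave 8983 probes 1 symbol, 1 probe several and 1092 none. For 138 genes with several probes the probe with the highest mean was used. All 10 member symbols matched the RefSeq table by gene ID.

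Values were floored at each array's 25th percentile and log2-transformed. limma 3.58.1 in R 4.3.3 fitted LPS, GW3965 and TSA as additive terms to 4806 genes at or above their array's median on at least 2 arrays. It used an intensity trend, 2 residual and 15.1 prior degrees of freedom, so the errors lean on genes of like intensity. A dependence of one treatment on another enters its residual. p-values were adjusted by Benjamini-Hochberg over all genes. The procedure was run on simulated arrays with additive effects and independent noise. That run cannot show how it handles a dependence between treatments. Figures used matplotlib 3.10.9.

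All members are described. Of the pathway list the text names up to 4 passing genes per direction, and 3 genes of like profile for each of 2 members. The members and lists were chosen with earlier results of these data known. Alternatives covered scaling, floor, level filter, probes, prior variance, size threshold and leaving out a pair. Leaving out a pair keeps 1 residual degree of freedom, so those errors come mostly from genes of like intensity. The small number of arrays limits the precision.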

Additional observations from a re-analysis of the deposited data

Results flagged for a closer look

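Tlr3 and Myd88 had differences of opposite sign, each at least 1.5-fold, under the same contrast in different backgrounds. Tlr3 was lower in TSA + LPS against LPS, at -1.62 on the log2 scale, and higher in TSA + GW3965 + LPS against GW3965 + LPS, at 0.96. Myd88 was lower in GW3965 + LPS against LPS, at -0.69, and higher in TSA + GW3965 + LPS against TSA + LPS, at 0.95. Each of these 4 differences is between 1 array and 1 other. The test of a dependence between GW3965 and TSA, which averages the TSA effect without GW3965 over 2 pairs, gave an adjusted p of 0.999 for both genes. Without the LPS and TSA + LPS arrays the fitted TSA effect on Tlr3 was 0.69, and with all arrays it was -0.08; it passed the test in neither case.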

How the results depend on the processing

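Of 188 recomputed counts of members, 176 stayed within 1.5 times their value, and 434 of 450 fitted effects kept their direction and their side of the threshold. These totals include counts of 0 that stayed 0 and alternatives that could not move a member's value. Each member has 1 probe, and a floor at the 10th percentile touched none. The 9 members that rose with LPS did so in all 9 alternatives. Only quantile normalization, cyclic loess and the median floor changed any of their fitted LPS effects, the last for Tlr3 alone. The rest changed only errors and adjusted p-values. The 3 that fell with TSA did so in each alternative except the 2 left-out pairs given above for Cd14 and Myd88, and Ikbke joined them after quantile normalization, cyclic loess and without a level filter. At 1.5-fold in place of 2-fold, 3 members were higher and 3 lower in TSA against No treatment, against 934 and 625 of 4729 genes. For TSA + LPS against TSA 1 was lower, against 818 of 4785 genes. For GW3965 + LPS against LPS 2 were lower, against 332 of 4622 genes. For TSA + GW3965 + LPS against TSA + LPS 1 was higher, against 517 of 4682 genes. In TSA + GW3965 + LPS against GW3965 + LPS, 1 was then higher and 2 lower, against 660 and 337 of 4697 genes. After quantile normalization and after cyclic loess 2 members were lower in TSA against No treatment, against 289 of 4729 and 254 of 4724 genes. Likewise 2 were lower in TSA + GW3965 + LPS against GW3965 + LPS, against 58 of 4697 and 61 of 4695 genes. After cyclic loess 1 was higher in that second pair, against 221 of 4695 genes. Effects near 0 that changed sign were the TSA effect on Tlr2, at -0.11 after quantile normalization, -0.13 after cyclic loess and -0.31 without the resting pair; on Tab2, at -0.23 without the resting pair; on Tlr1, at 0.18 without the LPS pair and 0.10 without the GW3965 pair; and on Tlr3, at 0.69 without the LPS pair. The GW3965 effect on Tab2 was 0 after quantile normalization, and the dependence of LPS on TSA was 0.06 and 0.07 for Myd88 after quantile normalization and cyclic loess and 0.08 for Irak1 after the first. None of these passed the test, and the cause was not tested. The dependence of LPS on TSA without the GW3965 pair was not run, since it leaves no residual degrees of freedom. With 1 array a group, low readings such as Tlr3 without LPS are the least certain.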

Other observations

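Some probes of genes of LPS recognition itself lay near or under the floor, and these were singled out after their values were seen. A probe's level also depends on its own affinity, so a low reading does not give the amount of the transcript. Ly96, whose product MD-2 binds LPS together with TLR4, read 0.0388 to 0.149 and was under the 25th percentile of all 6 arrays, as was Traf6, the ubiquitin ligase downstream of IRAK1, at 0.0511 to 0.192. Tlr4, the LPS receptor, read 0.640 to 1.55 and reached the array median on 3 arrays. Its fitted effects were -0.47 with LPS (SE 0.31, adjusted p = 0.365) and 0.16 with TSA (SE 0.26, adjusted p = 0.727). Map3k7, which encodes the kinase TAK1, read 0.393 to 0.908, under the array median on all 6 arrays.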
